A study of Homo sapiens with 8 samples.

Results

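Ribosome biogenesis was followed through 40 genes, picked by symbol from the 16383 genes of the count table. They are the growth regulator MYC and 5 genes of RNA polymerase I transcription. Another 4 belong to the box C/D and 5 to the box H/ACA small nucleolar ribonucleoproteins (snoRNPs). The rest are 10 genes of the small subunit processome and 40S assembly, 10 of 60S assembly, and 5 grouped as abundant nucleolar proteins. The cells were MDA-MB-231, an established human triple-negative breast cancer line. They received either 5 µM c-di-GMP, a bacterial cyclic dinucleotide that binds the innate immune adaptor STING, or its vehicle, phosphate-buffered saline, and were harvested at 24 h. Each group had 4 libraries of bulk RNA, and both groups shared the same parental line, medium and serum, with no genetic change named. Separate cultures are not stated for the replicates, and p-values here therefore reflect library-to-library spread, which may be technical.

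Ribosomes are assembled in the nucleolus. RNA polymerase I transcribes the long precursor of the ribosomal RNAs, snoRNPs guide its chemical modification, and large assembly machines fold, cut and package it into the 40S and 60S subunits. MYC is a transcription factor that binds CACGTG sequences, called E-boxes, in the promoters of many genes of this pathway, and proliferating cancer cells keep the pathway highly active. Counts of these genes report the messenger RNAs of the machinery, not the ribosomal RNA or the ribosomes made.

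Promoters were read for the E-box. The genes come from a pathway with many MYC-bound promoters, so the shares below may not be independent of their choice. Promoter windows from RefSeq on GRCh38.p14 run from 250 bases before to 50 bases after a transcription start, and 33 of the 40 genes had an entry. The letters CACGTG, which read the same on both strands, were found in 16 of these 33 genes (48.5%), against 12.3% of the 10688 tested genes with an entry. Over windows, 16 of the 42 windows of these genes held it (38.1%), against 9.13% of the 15567 windows of tested genes and 7.26% of all 35116 windows. Close to the start the contrast was wider: 15 of the 33 genes (45.5%) held the motif within 50 bases on either side, against 5.13% of tested genes. A match describes letters in a window, not a bound site. The 4 windows shown run from 250 bases before to 30 bases after the start, 5′ to 3′ on the gene's strand, with CACGTG in capitals. They show a gene with a pair of motifs, 2 genes with the motif at the start itself, and UBTF, which has none in the window shown. NOP10 lies at chr15:34343107-34343386 on the minus strand, FBL at chr19:39846350-39846629 on the minus strand, WDR43 at chr2:28894417-28894696 on the plus strand, and UBTF at chr17:44220853-44221132 on the minus strand.
NOP10: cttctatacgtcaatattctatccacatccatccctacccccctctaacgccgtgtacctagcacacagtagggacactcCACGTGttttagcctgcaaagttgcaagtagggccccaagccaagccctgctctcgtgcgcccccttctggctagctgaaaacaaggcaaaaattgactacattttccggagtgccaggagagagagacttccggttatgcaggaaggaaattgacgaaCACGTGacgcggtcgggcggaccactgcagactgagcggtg
FBL: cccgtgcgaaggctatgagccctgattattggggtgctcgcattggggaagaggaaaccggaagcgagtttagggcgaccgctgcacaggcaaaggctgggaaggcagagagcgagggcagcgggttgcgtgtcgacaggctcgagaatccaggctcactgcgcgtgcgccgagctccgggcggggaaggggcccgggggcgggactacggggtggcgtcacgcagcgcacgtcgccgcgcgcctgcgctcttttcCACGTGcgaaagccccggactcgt
WDR43: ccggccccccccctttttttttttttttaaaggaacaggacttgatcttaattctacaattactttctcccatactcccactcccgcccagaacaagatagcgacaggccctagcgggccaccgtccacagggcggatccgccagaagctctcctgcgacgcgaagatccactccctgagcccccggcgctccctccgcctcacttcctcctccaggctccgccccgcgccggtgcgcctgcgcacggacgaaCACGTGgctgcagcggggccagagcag
UBTF: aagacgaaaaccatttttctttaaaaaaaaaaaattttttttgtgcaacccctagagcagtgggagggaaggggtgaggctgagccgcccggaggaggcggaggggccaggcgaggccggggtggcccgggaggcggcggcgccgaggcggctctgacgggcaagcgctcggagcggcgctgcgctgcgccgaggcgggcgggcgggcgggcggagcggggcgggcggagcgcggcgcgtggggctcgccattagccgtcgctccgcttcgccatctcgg

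In NOP10 the motifs begin at positions -170 and -11 from the start, in FBL at position 7 after it and in WDR43 at position 4. Set by this motif, the median GC-corrected log2 fold change after c-di-GMP, explained further on, was 0.13 for the 16 genes with it and 0.14 for the 17 without. Above 0 were 15 of the 16 and 14 of the 17, against 49.3% of all genes. These values are descriptions, with no test.

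The libraries held 16151360 to 18040010 counts each, and 3 counts were worth 0.166 to 0.186 CPM, counts scaled to library size. The cells carried the mesenchymal transcripts of this line, with VIM at 116 to 148 FPKM, the authors' length-scaled level, and CDH1 at 0.30 to 0.63 FPKM in the 7 libraries other than vehicle replicate 3. Vehicle replicate 3 stood apart from all others. Against the mean of vehicle replicates 1, 2 and 4, 30 of the 40 genes were higher in it and 10 lower. It lay outside the range of the other 7 libraries for 37 of them (27 above, 10 below). The shares of all genes so placed were not counted, so these counts do not mark the listed genes as particular. Results are given with all 8 libraries and without vehicle replicate 3, whose values are printed beside the rest. CPM values are scaled by the trimmed mean of M-values (TMM) over all 8 libraries unless said otherwise.

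The excess in vehicle replicate 3 followed gene length. Among the 12 genes of up to 3000 bases the median ratio to the other vehicle libraries was 3.06 (range 1.06 to 6.20). Among the 19 of over 3000 and up to 6000 bases it was 1.45 (0.073 to 3.75), and among the 9 longer genes 1.13 (0.12 to 2.22). The ranges overlap, so single genes depart from the trend. All genes of those lengths had medians of 1.74, 1.02 and 0.679. Spearman's rho of the ratio with length was -0.60 across the 40 genes and -0.32 across 14041 genes of at least 1 CPM, as a description of this library. NOP16 and FBL were the most raised, at 144.3 against 22.2 to 24.0 CPM and 971.0 against 155.8 to 165.5 CPM. HEATR1, a long gene, was at 6.26 CPM there against 50.6 to 51.9 CPM.

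**Figure D1:**
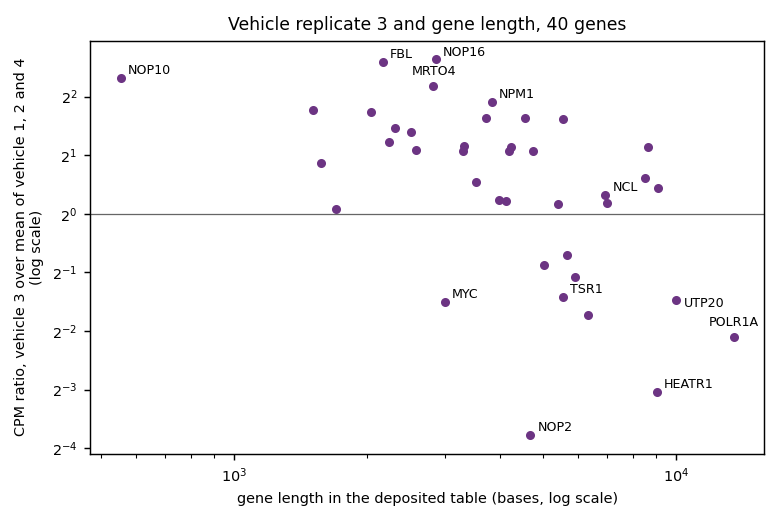
Ratio of CPM in vehicle replicate 3 to the mean of vehicle replicates 1, 2 and 4 (vertical, log scale) against gene length in bases (horizontal, log scale), 1 point per gene for the 40 genes. Short genes such as NOP10, FBL and NOP16 lie well above a ratio of 1 and HEATR1 and POLR1A far below it. NOP2, MYC and TSR1, of intermediate length, also lie far below 1, and the long gene DDX10 lies above it.

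With all 8 libraries no gene of the list passed the test. Of 15415 genes tested by edgeR's quasi-likelihood test, 0 (0%) were called at an adjusted p under 0.05, with 960 at an unadjusted p under 0.05, and 3 of the 40 genes were among those 960. DESeq2 called 106 of the 11321 genes it gave an adjusted p (0.936%), none of them in the list. Fold changes had standard errors of 0.10 to 0.64 (log2), and adjusted p ran from 0.62 to 0.92. In this comparison 14 of the 40 log2 fold changes were above 0 (44.5% of all genes), with a median of -0.23 (all genes -0.05).

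Without vehicle replicate 3, most of the machinery was slightly higher after c-di-GMP. Of the 40 genes, 20 rose and 6 fell by edgeR (adjusted p under 0.05), where 13.5% of all 15647 genes tested rose and 16.2% fell. The median log2 fold change was 0.14, against 0.0014 for all genes, and 29 of 40 were above 0 (50.2% of all genes). These rises lay between 0.14 and 0.39 on the log2 scale. Groups did not overlap for 24 genes higher and 5 lower in c-di-GMP, where 17.3% and 18.3% of all genes were so separated. The direction rests on leaving out 1 library: 12 of the 20 rises had a log2 fold change below 0 with all 8 libraries, and MYC, which fell, was above 0. These libraries are bulk samples scaled to library size, so the changes are relative and do not report cell number or total RNA per cell. A change in all cells and one in only some of them cannot be told apart.

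Fold changes of the 7 libraries also followed GC content. Spearman's rho of the log2 fold change with transcript GC content, taken from the longest transcript, was -0.76 over the 40 genes and -0.59 over 15643 tested genes, a description with no test. At 60 to 70% GC the median gene was lower by 0.30 on the log2 scale (-0.30), and at 40 to 45% GC it was higher by 0.10. The listed genes had a median GC content of 51.0% (40.2 to 65.2%), all tested genes 48.3%. The fit was therefore repeated with each library's GC trend taken out, which is called GC-corrected here. After that, 19 of the 40 genes rose and 1, UBTF, fell, where 8.58% of all genes rose and 6.62% fell. The median was 0.12 (all genes -0.0029), 34 of 40 were above 0 (49.3% of all genes), and the rises ran from 1.09-fold to 1.39-fold. GC-corrected CPM did not overlap between groups for 28 genes, all higher in c-di-GMP, where 12.8% of all genes were so separated upward and 10.6% downward. Of the 40, 13 rose in both fits and 7 rose only without the correction. Another 5 rose only with it, 1 turned from lower to higher, 4 lost a fall, UBTF fell in both, and 9 passed neither. The part of GC content and of vehicle replicate 3 in these differences was not tested beyond these fits. Of the 19 rises, 13 were below 0 with all 8 libraries in the uncorrected fit. With all 8 libraries and the GC trend taken out, 13 of the 40 genes were above 0 and 27 below, with a median of -0.21. With the length trend also taken out these counts were the same, with a median of -0.12.

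**Figure D2:**
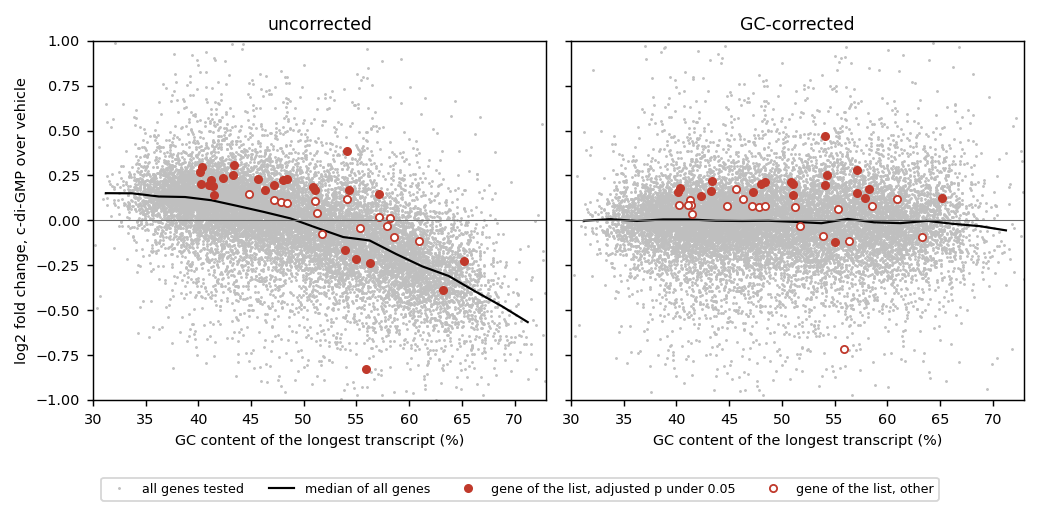
Log2 fold change of c-di-GMP over vehicle without vehicle replicate 3 (vertical) against the GC content of the longest transcript in percent (horizontal), uncorrected on the left and GC-corrected on the right, vertical axes ending at -1 and 1. The median of all genes falls with GC on the left and lies near 0 on the right, where 34 of the 40 genes (red) lie above 0.

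**Figure D3:**
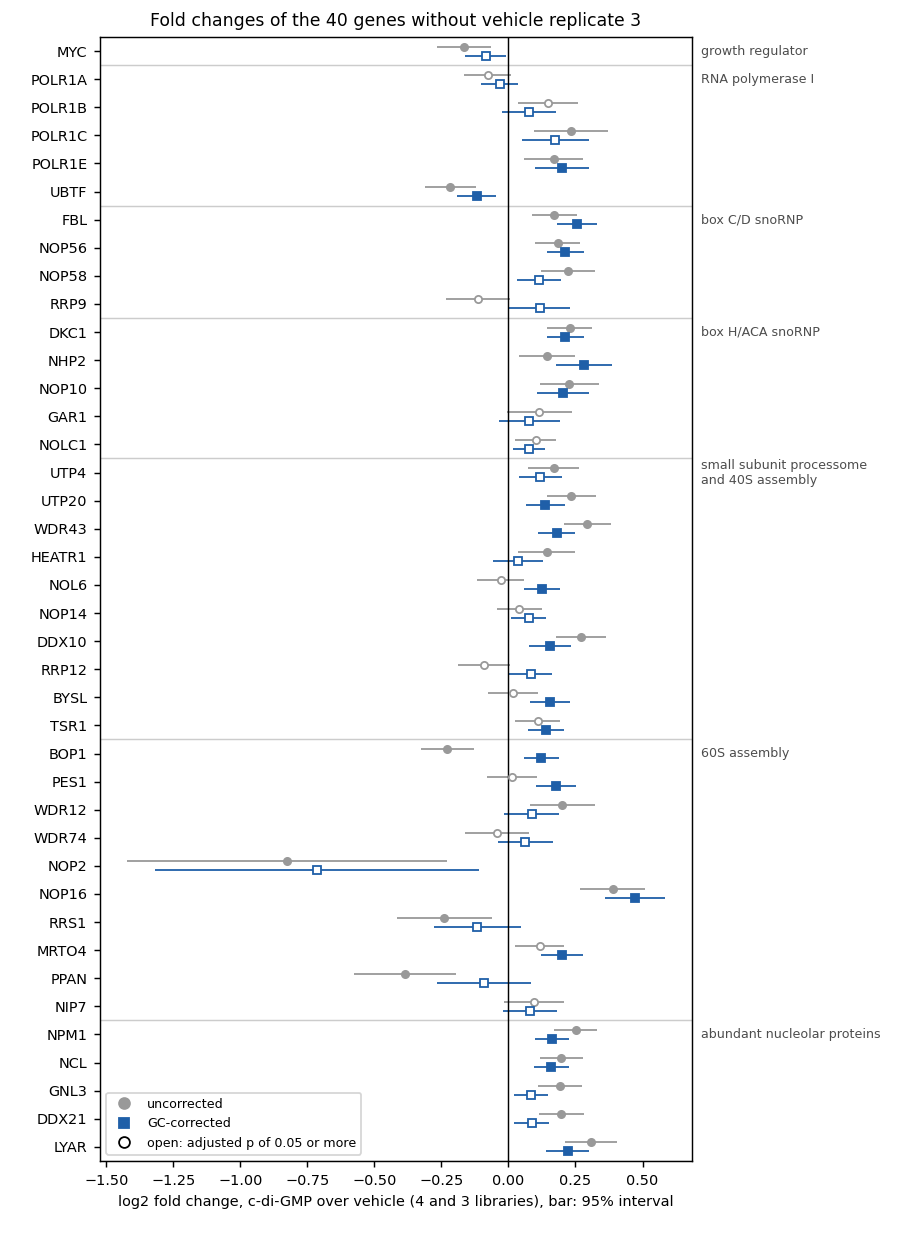
Log2 fold change of each of the 40 genes by role (points, bars 95% intervals), c-di-GMP replicates 1 to 4 over vehicle replicates 1, 2 and 4. Filled symbols passed an adjusted p of 0.05, and GC-corrected values (blue squares) lie above 0 for 34 of 40 genes.

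MYC, the transcription factor upstream of the pathway, did not rise in any of the 3 fits. Its level was 225.7, 187.0 and 193.6 CPM in vehicle replicates 1, 2 and 4, 71.2 CPM in vehicle replicate 3, and 182.6, 176.3, 186.2 and 177.0 CPM after c-di-GMP. The c-di-GMP libraries lay just under the lowest of the 3 vehicle libraries and far above vehicle replicate 3. MYC fell by 0.17 on the log2 scale (SE 0.05, edgeR adjusted p = 0.017) without vehicle replicate 3. After GC correction its log2 fold change was -0.09 (SE 0.04, edgeR adjusted p = 0.16), and with gene length corrected as well it was -0.13 (edgeR adjusted p = 0.021). With all 8 libraries it was 0.09 (SE 0.31).

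Among the RNA polymerase I genes, 2 of 5 rose and 1 fell without correction, and 1 rose and 1 fell with it. Of all genes, 13.5% rose and 16.2% fell uncorrected, and 8.58% rose and 6.62% fell GC-corrected. Single calls among 5 genes are too few to set apart from these shares. UBTF, the factor that opens and holds ribosomal DNA for transcription, had 135.7, 121.1 and 126.2 CPM in the 3 vehicle libraries other than vehicle replicate 3, which had 144.2 CPM. After c-di-GMP it was at 105.7, 107.4, 117.3 and 109.9 CPM, below all 4 vehicle libraries. It fell by 0.22 on the log2 scale (SE 0.05, edgeR adjusted p = 0.0014), and by 0.12 GC-corrected (SE 0.04, edgeR adjusted p = 0.030). With the length trend also taken out no RNA polymerase I gene passed, UBTF included. POLR1E, a subunit of the enzyme, was at 41.6, 42.9 and 43.3 CPM in the 3 vehicle libraries, at 112.6 CPM in vehicle replicate 3, and at 49.2, 47.7, 50.4 and 44.7 CPM after c-di-GMP. It rose by 0.17 on the log2 scale uncorrected and by 0.20 GC-corrected (SE 0.05, edgeR adjusted p = 0.0080). With the length trend also taken out its change was 0.14 (edgeR adjusted p = 0.052), no longer past the threshold. POLR1C, a subunit shared with RNA polymerase III, had 25.1, 31.0 and 30.3 CPM in the 3 vehicle libraries, 88.4 CPM in vehicle replicate 3 and 32.4, 36.4, 33.8 and 32.9 CPM after c-di-GMP, with vehicle replicate 1 the lowest. It rose only without correction by 0.23 on the log2 scale (edgeR adjusted p = 0.015). GC-corrected it had 0.17 (edgeR adjusted p = 0.067), and 18.2% of its exon bases are overlapped by genes on the other strand. The large catalytic subunits passed neither fit: the GC-corrected log2 fold change was -0.03 for POLR1A (95% interval -0.10 to 0.04, unadjusted) and 0.08 for POLR1B (95% interval -0.02 to 0.18, unadjusted).

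The box C/D snoRNPs guide 2′-O-methylation of ribosomal RNA. Of the 4 genes for their proteins, 3 rose uncorrected (13.5% of all genes) and 2 GC-corrected (8.58% of all genes). FBL, the methyltransferase, was at 155.8, 165.5 and 160.1 CPM in the 3 vehicle libraries and at 173.3, 179.4, 187.2 and 183.9 CPM after c-di-GMP. All c-di-GMP values exceeded those 3, while vehicle replicate 3 stood at 971.0 CPM. FBL rose by 0.17 uncorrected and 0.25 GC-corrected on the log2 scale (SE 0.04, edgeR adjusted p = 3.8e-05), against -1.004 (SE 0.63) with all 8 libraries. NOP56, a core protein of the same particle, went from 207.2, 217.5 and 203.7 CPM to 237.9, 242.9, 246.5 and 226.7 CPM. Vehicle replicate 3 lay among the treated values, at 236.0 CPM. Its GC-corrected rise was 0.21 (SE 0.03, edgeR adjusted p = 0.00013). NOP58, its partner, had 67.7, 76.1 and 66.5 CPM in the 3 vehicle libraries, 147.3 CPM in vehicle replicate 3 and 80.5, 80.9, 81.4 and 85.0 CPM after c-di-GMP, all treated values above those 3. It rose uncorrected by 0.22 (edgeR adjusted p = 0.0018) but had 0.11 after correction (edgeR adjusted p = 0.073). RRP9, which binds the U3 snoRNA, passed neither fit, at -0.11 and 0.12.

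Among the box H/ACA genes, whose particles direct pseudouridylation, 3 of 5 rose in each fit. In the same fits 13.5% of all genes rose uncorrected and 8.58% GC-corrected. DKC1, the pseudouridine synthase, was at 134.5, 138.8 and 132.7 CPM in the 3 vehicle libraries, 284.5 CPM in vehicle replicate 3, and 157.5, 158.9, 166.0 and 153.3 CPM after c-di-GMP. It rose by 0.23 uncorrected and 0.21 GC-corrected (SE 0.03, edgeR adjusted p = 0.00011). NHP2 was at 43.2, 46.9 and 44.1 CPM and then at 49.9, 49.9, 48.8 and 49.7 CPM, with 152.8 CPM in vehicle replicate 3. Its GC-corrected rise was 0.28 (SE 0.05, edgeR adjusted p = 0.00049), and 27.4% of its exon bases are shared with RMND5B on the other strand. NOP10, the smallest core protein, was at 41.5, 47.9 and 44.3 CPM and then at 52.1, 51.1, 52.4 and 53.4 CPM, with 223.2 CPM in vehicle replicate 3, and rose by 0.20 GC-corrected (edgeR adjusted p = 0.0059). With the length trend also taken out NOP10 had 0.11 (edgeR adjusted p = 0.13) and did not pass. GAR1 and the snoRNP chaperone NOLC1 had GC-corrected log2 fold changes of 0.08 each and passed neither fit.

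The small subunit processome and 40S assembly genes gave 5 rises uncorrected and 6 GC-corrected among 10, and no falls. All genes gave 13.5% and 8.58% rises, and 16.2% and 6.62% falls. WDR43, a processome subunit, was at 91.0, 97.1 and 93.9 CPM in the 3 vehicle libraries and 108.9 CPM in vehicle replicate 3, and at 116.1, 119.0, 112.0 and 115.0 CPM after c-di-GMP. All 4 treated libraries exceeded all 4 vehicle libraries. It rose by 0.29 uncorrected (edgeR adjusted p = 2.3e-05) and 0.18 GC-corrected (SE 0.03, edgeR adjusted p = 0.00074). UTP20 went from 79.1, 89.8 and 82.9 CPM, with 30.3 CPM in vehicle replicate 3, to 98.5, 100.1, 99.4 and 98.2 CPM, and the helicase DDX10 from 73.4 to 78.9 CPM to 86.7 to 93.9 CPM, with 167.1 CPM in vehicle replicate 3. Both rose in both fits, GC-corrected by 0.14 and 0.16. NOL6 and the 40S maturation factors BYSL and TSR1 rose only with correction, by 0.13, 0.15 and 0.14. Their uncorrected changes were -0.03, 0.02 and 0.11, and the GC contents of NOL6 and BYSL were 57.9% and 57.1%. NOL6 had 118.0, 111.3 and 108.8 CPM in the 3 vehicle libraries, 53.5 CPM in vehicle replicate 3 and 111.6, 107.5, 111.4 and 112.0 CPM after c-di-GMP. BYSL had 115.5, 113.5 and 107.3 CPM in the 3 vehicle libraries, 262.7 CPM in vehicle replicate 3 and 112.6, 106.2, 120.4 and 115.2 CPM after c-di-GMP. Uncorrected, treated and vehicle libraries overlap in both genes. BYSL did not pass with the length trend also taken out, at 0.09 (edgeR adjusted p = 0.081). TSR1 had 129.0, 130.3 and 122.7 CPM in the 3 vehicle libraries, 47.6 CPM in vehicle replicate 3 and 136.6, 138.9, 134.9 and 139.9 CPM after c-di-GMP, and 20.9% of its exon bases are shared with SGSM2 and SRR on the other strand. UTP4 and HEATR1, which link the processome to polymerase I transcription, rose uncorrected by 0.17 and 0.14 and did not pass GC-corrected. UTP4 passed again with the length trend also taken out, at 0.13 (edgeR adjusted p = 0.032). UTP4 had 66.8, 68.2 and 65.0 CPM in the 3 vehicle libraries, 41.1 CPM in vehicle replicate 3 and 72.0, 72.7, 78.5 and 77.0 CPM after c-di-GMP. HEATR1 had 50.6, 51.6 and 51.9 CPM in the 3 vehicle libraries, 6.26 CPM in vehicle replicate 3 and 57.0, 60.9, 53.3 and 56.2 CPM after c-di-GMP, and LGALS8 on the other strand shares 23.2% of its exon bases. In both, all treated libraries lay above vehicle replicates 1, 2 and 4, with vehicle replicate 3, the library that stood apart, lower still. GC-corrected, the groups of HEATR1 overlapped. NOP14 and RRP12 passed neither, at 0.08 each GC-corrected. With the length trend also taken out RRP12 passed, at 0.12 (edgeR adjusted p = 0.045).

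Of the 10 genes of 60S assembly, 2 rose and 4 fell uncorrected, where 13.5% of all genes rose and 16.2% fell. The 2 rises are near that share. GC-corrected, 4 rose with no falls, where 8.58% of all genes rose and 6.62% fell. NOP16, a nucleolar protein of the early 60S, showed the largest rise of the 40. It was at 24.0, 22.2 and 23.6 CPM in the 3 vehicle libraries and at 29.3, 30.9, 30.8 and 30.9 CPM after c-di-GMP, well separated, while vehicle replicate 3 was at 144.3 CPM. It rose by 0.39 uncorrected and 0.47 GC-corrected on the log2 scale (SE 0.06, edgeR adjusted p = 3.1e-06), against -0.81 (SE 0.64) with all 8. Its exons overlap those of ARL10 and HIGD2A on the other strand by 20.0%. BOP1, PES1 and WDR12 form the PeBoW complex, which is needed to process the 60S rRNA. BOP1 turned with the correction: it was at 173.6, 149.9 and 154.6 CPM and then 136.8, 129.6, 144.2 and 134.8 CPM uncorrected, with 494.4 CPM in vehicle replicate 3, and fell by 0.23 (edgeR adjusted p = 0.0012). GC-corrected it was at 145.5, 147.5 and 146.6 CPM and then 157.3, 155.1, 166.3 and 159.2 CPM, and rose by 0.12 (SE 0.03, edgeR adjusted p = 0.013). Its transcript has 65.2% GC, the highest of the 40, so its direction depends on that correction.

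PES1 had 0.01 uncorrected and rose by 0.18 GC-corrected (edgeR adjusted p = 0.0021), and WDR12 did the reverse, rising by 0.20 uncorrected (edgeR adjusted p = 0.015) with 0.09 after correction. PES1 had 90.5, 85.8 and 86.6 CPM in the 3 vehicle libraries, 271.9 CPM in vehicle replicate 3 and 90.1, 84.5, 94.1 and 86.0 CPM after c-di-GMP. WDR12 had 37.6, 42.9 and 44.8 CPM in the 3 vehicle libraries, 56.6 CPM in vehicle replicate 3 and 48.2, 46.1, 51.0 and 47.3 CPM after c-di-GMP. Uncorrected, the groups overlap in PES1, and in WDR12 only vehicle replicate 3 exceeds the treated libraries. MRTO4, a ribosome stalk assembly factor, had 73.5, 73.2 and 70.5 CPM in the 3 vehicle libraries, 327.6 CPM in vehicle replicate 3 and 77.8, 74.9, 81.3 and 80.7 CPM after c-di-GMP. It rose by 0.20 GC-corrected (edgeR adjusted p = 0.00097). The falls of NOP2, RRS1 and PPAN uncorrected (-0.83, -0.24 and -0.39) did not pass after correction (-0.72, -0.12 and -0.09). RRS1 had 32.7, 23.4 and 32.3 CPM in the 3 vehicle libraries, 31.2 CPM in vehicle replicate 3 and 26.2, 23.0, 23.3 and 27.6 CPM after c-di-GMP, with overlapping groups. PPAN had 12.4, 11.2 and 10.9 CPM in the 3 vehicle libraries, 24.4 CPM in vehicle replicate 3 and 9.54, 7.93, 9.18 and 8.65 CPM after c-di-GMP, the treated libraries below all 4 others. NOP2, an rRNA methyltransferase, rests on few counts: 17, 28 and 24 in the 3 vehicle libraries, 1 in vehicle replicate 3 and 12, 18, 12 and 8 after c-di-GMP. Of its exon bases 54.4% are shared with AC006064.6 on the same strand, and 59.8% of those of PPAN with P2RY11 and the PPAN-P2RY11 readthrough, so that both counts are uncertain. WDR74 and NIP7 passed neither fit.

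The messengers of all 5 genes grouped as abundant nucleolar proteins rose uncorrected, and 3 GC-corrected, where 13.5% and 8.58% of all genes rose. By median FPKM of the 7 libraries not all 5 led the list. LYAR was at 34.1 FPKM, below NOP10 of another group at 92.3 FPKM. NPM1, the nucleolar histone chaperone, was at 864.0, 929.5 and 873.2 CPM in the 3 vehicle libraries and at 1061.9, 1025.7, 1085.8 and 1066.9 CPM after c-di-GMP. All treated values were above these 3, and vehicle replicate 3, at 3337 CPM, was above all. The rise was 0.25 uncorrected and 0.16 GC-corrected (SE 0.03, edgeR adjusted p = 0.00092), against -0.50 (SE 0.47) with all 8. NCL, nucleolin, went from 713.7, 739.7 and 675.2 CPM, with 890.9 CPM in vehicle replicate 3, to 810.6, 818.3, 825.2 and 805.2 CPM, and rose by 0.16 GC-corrected (edgeR adjusted p = 0.0012). LYAR, a nucleolar growth regulator, went from 64.2, 70.5 and 66.7 CPM to 84.4, 81.7, 87.4 and 79.5 CPM, with 185.8 CPM in vehicle replicate 3, and rose by 0.22 GC-corrected (edgeR adjusted p = 0.00056). GNL3, nucleostemin, had 135.5, 146.3 and 140.6 CPM in the 3 vehicle libraries, 315.1 CPM in vehicle replicate 3 and 162.7, 159.5, 162.7 and 159.4 CPM after c-di-GMP. The helicase DDX21 had 300.9, 332.8 and 304.2 CPM in the 3 vehicle libraries, 171.3 CPM in vehicle replicate 3 and 355.8, 366.6, 352.4 and 361.3 CPM after c-di-GMP. Both lay higher after c-di-GMP than in the 3 vehicle libraries, and vehicle replicate 3 was above the treated range for GNL3 and below all others for DDX21. They rose by 0.19 and 0.20 uncorrected and had 0.08 and 0.09 after correction.

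**Figure D4:**
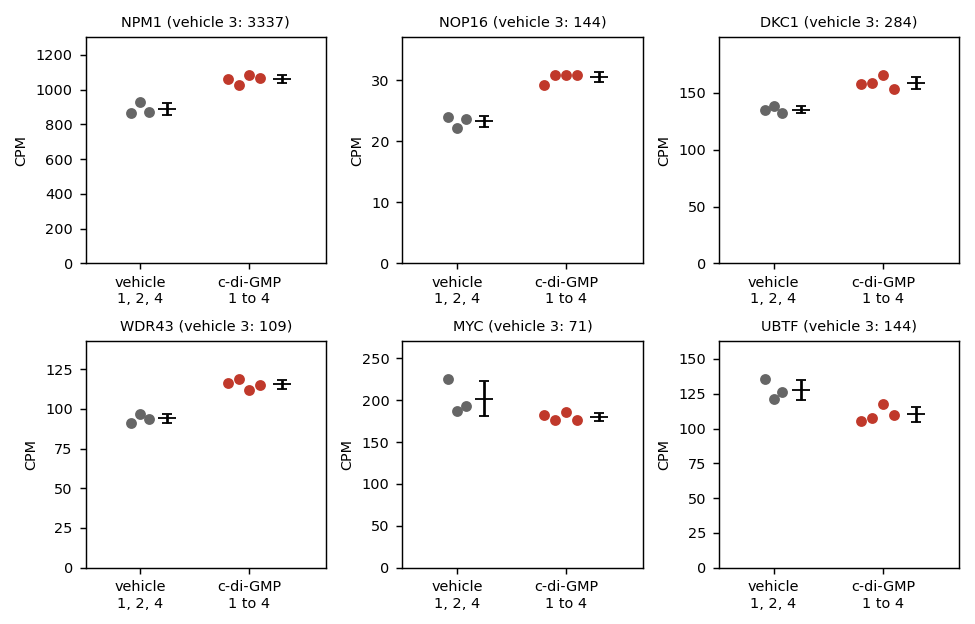
CPM per library (vertical, from 0) of 6 genes in vehicle replicates 1, 2 and 4 (grey) and c-di-GMP replicates 1 to 4 (red), with mean and SD as black bars; the value of vehicle replicate 3 is written above each panel. In NPM1, NOP16, DKC1 and WDR43 the red points lie above the grey ones, in MYC and UBTF below them.

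**Figure D5:**
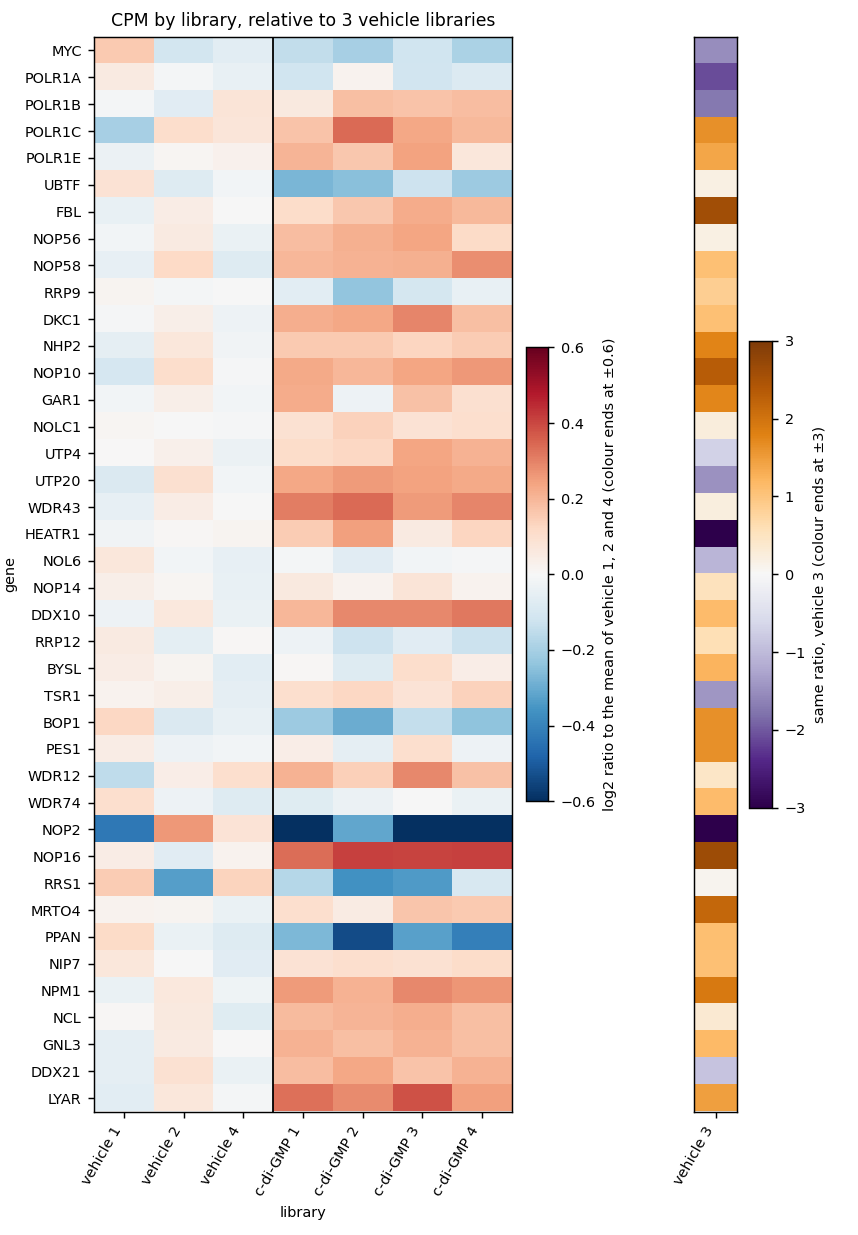
Log2 ratio of CPM to the mean of vehicle replicates 1, 2 and 4 for the 40 genes (rows) in each library (columns), with vehicle replicate 3 on a wider colour scale at the right. The 4 c-di-GMP columns are mostly red, and vehicle replicate 3 ranges from deep purple (NOP2, HEATR1) to deep orange (FBL, NOP16).

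Levels per length spanned a wide range. By the median FPKM of the 7 libraries NPM1 was highest at 268 FPKM (range 223 to 283), followed by NCL at 116 FPKM (96.1 to 119) and NOP10 at 92.3 FPKM (74.0 to 96.0). Those 3 ranges did not overlap, though NCL and NOP10 nearly met. PPAN was lowest at 3.69 FPKM (3.07 to 4.76), then WDR12 at 5.07 FPKM (4.09 to 5.59), POLR1C at 5.84 FPKM (4.47 to 6.56) and HEATR1 at 5.88 FPKM (5.52 to 6.73). Each of these ranges overlaps the next, and POLR1C and HEATR1 change places with all 8 libraries. NOP2 is not listed in the FPKM table. Together the 40 genes took 0.545, 0.561 and 0.541% of the counts in vehicle replicates 1, 2 and 4, 0.689% in vehicle replicate 3, and 0.599, 0.598, 0.612 and 0.601% after c-di-GMP. Leaving out NPM1 and NCL, the shares were 0.379, 0.383 and 0.375%, 0.409% in vehicle replicate 3, and 0.401, 0.403, 0.409 and 0.403% after c-di-GMP. The treated libraries thus lay above those 3 vehicle libraries with and without the most abundant pair.

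Several of these genes carry snoRNA genes between their own start and end, some of them overlapping annotated exons, as in NOP56 and DKC1. By GENCODE v29, 9 of the 40 genes (22.5%) hold a snoRNA gene on the same strand, against 1.74% of 12859 protein-coding genes tested. GNL3 held 6, NOP56 5 and NOP58 4. Of these 9, 7 rose and 1 fell uncorrected (13.5% and 16.2% of all genes), and 5 rose with none falling GC-corrected (8.58% and 6.62% of all genes), beside 19 rises among all 40.

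The wider pathway was read from 143 further tested genes in 6 lists. Without vehicle replicate 3, 55 rose and 22 fell uncorrected, where 13.5% of all genes rose and 16.2% fell, so the falls were near that share. GC-corrected, 35 rose and 3 fell, where 8.58% of all genes rose and 6.62% fell. With all 8 libraries edgeR called 0. DESeq2 called 1 of 144 higher, on the 40S side, near the 0.936% of all genes it called in either direction. GC-corrected, 5 of 16 further RNA polymerase I genes rose, 13 of 46 of the 40S side, 10 of 50 of the 60S side (1 fell), 3 of 8 snoRNP assembly factors, 3 of 14 exosome subunits (1 fell), and 1 of 9 MYC network genes (1 fell). The single MYC network rise and fall (1 each of 9) are near that share. Among genes that passed both fits, POLR2L, a small subunit common to the nuclear RNA polymerases, rose by 0.35 (edgeR adjusted p = 6.1e-05), the processome protein IMP3 by 0.42 and the snoRNP protein SNU13 by 0.21. All of them were far higher in vehicle replicate 3, at 1383, 167.9 and 304.7 CPM, against at most 147.8, 15.9 and 97.9 CPM in the other vehicle libraries. The exosome subunit EXOSC6 fell by 0.29, the 60S factor SURF6 by 0.20 and MXD4, a MAX partner that opposes MYC, by 0.13. MAX itself rose by 0.21 (edgeR adjusted p = 0.0040), and is named after its value was seen.

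Leaving out each of the 7 libraries in turn, 15 to 19 of the 19 GC-corrected rises still passed, and all 19 kept their sign every time. In these fits 5.44 to 9.38% of all genes rose. BOP1 lost its call without vehicle replicate 4 or c-di-GMP replicate 3, UTP20 without vehicle replicate 1 or 4, NOL6 without vehicle replicate 4 or c-di-GMP replicate 4, POLR1E and NOP10 without vehicle replicate 1, and DDX10 without vehicle replicate 4. With the length trend also taken out, 16 of the 19 still rose, all but POLR1E, NOP10 and BYSL. UTP4 and RRP12, not called GC-corrected, rose in that fit, and MYC fell. The GC-corrected fall of UBTF was less stable. It passed without vehicle replicate 2 or c-di-GMP replicate 3, and did not pass without any of the other 5 libraries (log2 fold change -0.12 to -0.10, edgeR adjusted p 0.051 to 0.13).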

How the data were processed

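RNA sequencing of 4 vehicle and 4 c-di-GMP libraries was read from 2 tables. The authors deposited raw counts per gene and, separately, FPKM values per gene for the same libraries. The submitters' processing notes list featureCounts 1.5.0-p3, HISAT2 2.0.5, DESeq2 1.20.0, CASAVA 1.8 and fastp, and the build mm10; the identifiers and all 16383 gene coordinates match human GENCODE v29 on GRCh38. Whether counting used strand is not given in the sources used here. Symbols changed into dates (22) were restored from identifiers.

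Counts were tested with edgeR 4.0.16 (R 4.3.3): filterByExpr, TMM, quasi-likelihood F test, Benjamini-Hochberg over all genes tested, adjusted p under 0.05. Standard errors are the log2 fold change over the root of F. Fits used all 8 libraries, 7 without vehicle replicate 3, and these 7 with each library's lowess trend (span 0.3) on GC content of the longest transcript as an offset. The biological coefficient of variation was 36.3%, 4.52% and 3.49%. Group ratios of GC-corrected CPM were checked against the fitted changes. Alternatives were DESeq2 1.42.0, limma 3.58.1 on log2(FPKM + 1), other scaling, no filter, GC and length trends, span 0.6, leaving out each library, and a replicate block. Fits were also run on simulated counts with a common dispersion. These had no GC or length trend and no outlying library, so they cannot test how the fits handle those. All 40 genes are reported; of the other pathway genes, those called in the same direction in both 7-library fits were ranked by GC-corrected p, and the 3 smallest in each direction are named. The genes and lists were chosen with earlier results of these data known. Promoters come from RefSeq (GRCh38.p14).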

Additional observations from a re-analysis of the deposited data

Results flagged for a closer look

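In 34 of 80 groups of 4 libraries, the highest or lowest CPM of a listed gene stood apart from the other 3 by Dixon's 95% criterion, where chance gives about 1 in 20. Vehicle replicate 3 accounts for 30 of them, as the highest library in 24 and the lowest in 6. As the highest it had 88.4 CPM for POLR1C, 112.6 for POLR1E, 971.0 for FBL, 147.3 for NOP58, 63.7 for RRP9, 284.5 for DKC1, 152.8 for NHP2, 223.2 for NOP10, 122.1 for GAR1, 329.3 for NOLC1, 163.5 for NOP14 and 167.1 for DDX10. It had 100.8 CPM for RRP12, 262.7 for BYSL, 494.4 for BOP1, 271.9 for PES1, 74.7 for WDR74, 144.3 for NOP16, 327.6 for MRTO4, 24.4 for PPAN, 78.7 for NIP7, 3337 for NPM1, 315.1 for GNL3 and 185.8 for LYAR. As the lowest it had 45.9 CPM for POLR1A, 13.3 for POLR1B, 41.1 for UTP4, 6.26 for HEATR1, 53.5 for NOL6 and 47.6 for TSR1. The other 4 were small steps: POLR1B at 45.8 CPM and NOP16 at 29.3 CPM in c-di-GMP replicate 1, NOL6 at 107.5 CPM in c-di-GMP replicate 2, and RRS1 at 23.4 CPM in vehicle replicate 2, each the lowest of its group.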

How the results depend on the processing

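The direction of the listed genes depended on vehicle replicate 3. Leaving out each library of the 8 in turn gave 0 to 4633 genes called and 0 to 26 of the listed genes, and the high end of both was without vehicle replicate 3. Over these fits the log2 fold change ran from -0.17 to 0.26 for MYC, -0.55 to 0.23 for POLR1C, -0.46 to 0.17 for POLR1E, -1.25 to 0.17 for FBL, -0.24 to 0.22 for NOP58, -0.22 to 0.23 for DKC1, -0.71 to 0.15 for NHP2, -1.003 to 0.23 for NOP10, -0.22 to 0.27 for DDX10, -1.05 to 0.39 for NOP16, -0.69 to 0.25 for NPM1, -0.31 to 0.19 for GNL3 and -0.37 to 0.31 for LYAR. For these 13 genes, all called without that library, the sign without it was the opposite of that with all 8. Other listed genes, not called without it, also changed sign. Examples are MRTO4 (-0.79 with all 8, 0.12 without it) and POLR1A (0.23 and -0.08). With all 8 libraries DESeq2 with its defaults called 106 genes. A run of DESeq2 after edgeR's low-count filter, made before the planned setting was followed and so counted as chosen after seeing the data, called 134 genes; neither called a listed gene. Without vehicle replicate 3, limma on log2(FPKM + 1) called 3 listed genes lower. The counts gave 6, 1 of which, NOP2, has no FPKM value. GC-corrected, leaving out each of the 7 libraries gave 1476 to 2638 genes called, with 1476 without vehicle replicate 1 and 1551 without vehicle replicate 4. In these fits 15 to 22 listed genes were higher, beside 5.44 to 9.38% of all genes, and 0 to 3 were lower. Same-numbered libraries did not deviate together, so the numbers were not taken as pairs. The fit with the replicate number as a block called 17 listed genes higher and 5 lower uncorrected, and 16 and 1 GC-corrected. Shares of all genes called in the block and limma fits are not given here, so those counts cannot be read against a background. The cause of the differences between settings was not tested. NOP2 had at most 28 counts per library, so its fold change is imprecise.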
